A study of Mus musculus with 6 samples.

Results

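The Krüppel-like factors (KLFs) measured here are the products of 10 mouse genes, Klf2, Klf3, Klf4, Klf5, Klf6, Klf7, Klf9, Klf10, Klf13 and Klf16. Every probe whose platform gene symbol is one of these names was taken, which gave 17 of the 45281 probes on the array, for 10 of its 21946 named genes. The arrays measured messenger RNA of cortical neurons from C57BL/6J mice of genotype Dicerflox/flox, kept in culture for 14 days. No Cre is named in the labels, and both groups carry the floxed alleles. Control neurons (CTKD, 3 arrays) received a control lentivirus and miR-27b knockdown neurons (miR-27bKD, 3 arrays) a lentivirus directed against the microRNA miR-27b, both at a multiplicity of infection of 5. The series lists 3 neuronal preparations, and the same replicate number in both groups was taken as the same preparation.

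KLFs are transcription factors that bind GC-rich and CACCC-type DNA through zinc fingers at the C terminus. They differ in the N-terminal part, which for Klf2, Klf4, Klf5, Klf6 and Klf7 is known to recruit acetyltransferases, for Klf3 the corepressor CtBP, and for Klf9, Klf10, Klf13 and Klf16 the corepressor Sin3A. In cultured rodent neurons Klf4 and Klf9 are known to restrain neurite growth, whereas Klf6 and Klf7 are known to promote it. Klf9 rises as neurons mature and responds to thyroid hormone and glucocorticoids.

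The microRNA that the knockdown lentivirus was directed against is shown with its seed, bases 2 to 8, in capitals, beside its paralogue miR-27a, which has the same seed. Both sequences are from RefSeq (GRCm38.p6) and run 5′ to 3′.
miR-27b-3p (chr13:63300760-63300780, plus strand): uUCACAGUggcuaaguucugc
miR-27a-3p (chr8:84208727-84208747, plus strand): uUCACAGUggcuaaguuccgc
Whether the transcripts of the members hold a match to this seed was not examined here. The number of probes named Mir27b on the array is 0, so the level of the microRNA was not measured.

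Klf7 and Klf6 messenger RNA rose after miR-27b knockdown, while Klf9, Klf16 and Klf13 fell. The calls of Klf6 and Klf13 were less firm, each passing in 11 of 17 alternative fits, and the dimmer Klf6 probe did not pass. Klf9 had the largest difference of the 7 tested genes, a 3.14-fold lower level, and Klf7 the largest rise, 2.03-fold on its brightest probe. Klf5 and Klf2 did not pass, and Klf3, Klf4 and Klf10 were too dim to be tested. Of the 17 probes, 11 were detected (detection p under 0.05) on all 6 arrays and entered the fit, which required detection on at least 3 arrays. They represent 7 of the 10 genes. By limma with Benjamini-Hochberg adjustment over all 18627 tested probes, at a threshold of 0.05, 4 member probes were higher, 4 were lower and 3 did not pass. The 8 calls are 72.7% of the 11 probes, beside 27.4% of all tested probes called in either direction, 13.9% called higher and 13.6% called lower. The groups did not overlap for the same number, 8 of 11, beside 45.6% of all tested probes. The members were proposed with results of these arrays known, so the comparison of these shares is a description. The median difference over the 11 probes was 0.22 on the log2 scale, beside -0.0074 over all tested probes. With each of the 7 genes read once, by its brightest probe, the median was -0.017, beside 0.0058 over all genes, since 3 of the 11 probes are for Klf7. Differences are knockdown minus control throughout.

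**Figure D1:**
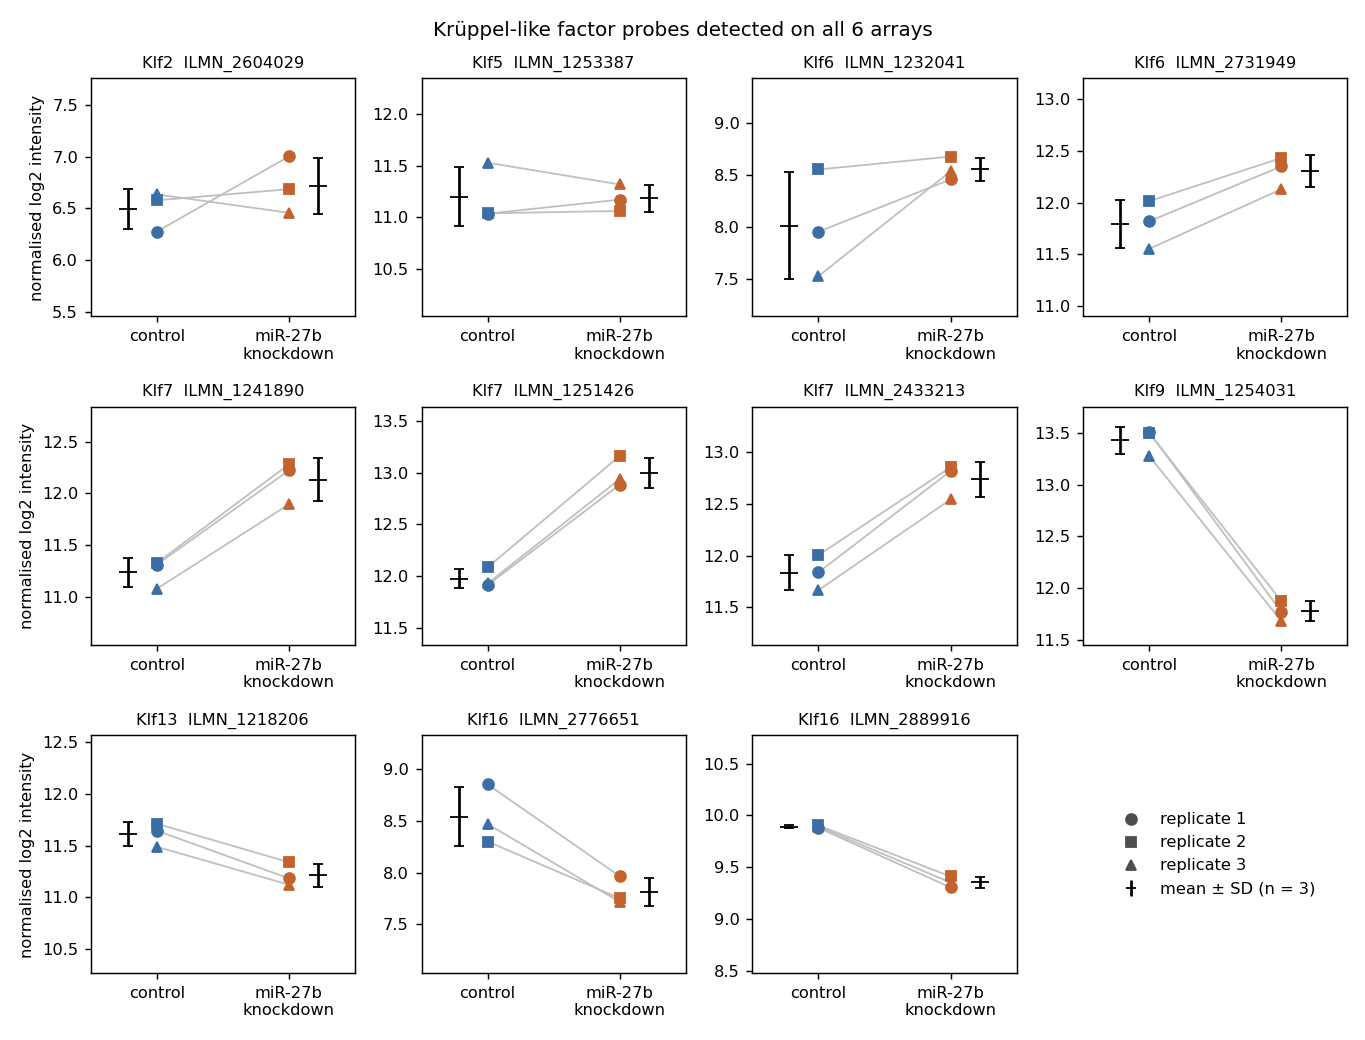
Normalised log2 intensity of the 11 Krüppel-like factor probes detected on all 6 arrays, one panel per probe, each spanning the same log2 range. Symbols mark the replicate number, lines join arrays of the same number, and black bars give the mean ± SD of 3 arrays; the groups do not overlap for Klf7, Klf9, Klf13, Klf16 and the brighter Klf6 probe, ILMN_2731949.

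Among the members that bind Sin3A, Klf9 (probe ILMN_1254031) is a repressor of neurite growth and a hormone-responsive gene. Its deposited intensity was 12710.5, 12359.8 and 9538.3 on control arrays 1 to 3, and 3614, 3982.3 and 2955.1 on knockdown arrays 1 to 3. Each knockdown array was below the lowest control array by a wide margin, and in both groups replicate 3 gave the lowest value. On the normalised log2 scale the mean level was 13.43 ± 0.13 in controls and 11.78 ± 0.097 after knockdown (SD, n = 3 per group). The difference was -1.65 (SE 0.10, limma adjusted p = 0.000407), with a 95% confidence interval from -1.90 to -1.40. It was -1.74, -1.62 and -1.60 in preparations 1, 2 and 3. Of the 18627 tested probes, 94 had a difference as low as that of Klf9 or lower.

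Klf16, known in mouse brain as a regulator of dopamine receptor genes, was read by 2 probes that moved the same way. Probe ILMN_2889916 read 1058.9, 1073.7 and 971.4 in controls and 720.8, 797.1 and 681.1 after knockdown. Its control levels lay close together after normalisation, at 9.89 ± 0.011, against 9.35 ± 0.053 after knockdown (SD, n = 3). The difference was -0.54 (SE 0.079, limma adjusted p = 0.00438), a 1.45-fold lower level. The dimmer probe, ILMN_2776651, read 549.7, 399.7 and 406.8 in controls and 332.8, 302.5 and 281.6 after knockdown. Control replicate 1 stood above the other controls on this probe, and the groups did not overlap. The difference of -0.73 (SE 0.16, limma adjusted p = 0.0172) became -0.70 with an adjusted p of 0.0554 without knockdown replicate 2.

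Klf13, which in mouse is known for controlling the chemokine gene Ccl5 in T cells, fell less. Its only probe, ILMN_1218206, read 3505.6, 3619.4 and 2792.6 in controls and 2433, 2777.9 and 2060.3 after knockdown. The lowest control array was replicate 3, just above the highest knockdown array, replicate 2. On the normalised scale the groups were separate, at 11.62 ± 0.11 and 11.22 ± 0.11 (SD, n = 3), with differences of -0.46, -0.37 and -0.37 in the 3 preparations. The difference of -0.40 (SE 0.10, limma adjusted p = 0.0307) is a 1.32-fold lower level. This call was lost with median scaling (-0.53, adjusted p = 0.0727) and with no filter on dim probes (adjusted p = 0.0681). It was also lost on leaving out control replicate 1 (-0.38, adjusted p = 0.0988), control replicate 2 (-0.35, adjusted p = 0.0948), knockdown replicate 1 (-0.38, adjusted p = 0.0834) or knockdown replicate 3 (-0.36, adjusted p = 0.0741).

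Klf10, an early gene of transforming growth factor beta signalling, was not detected on any array. Its single probe read between 75.4 and 94.7, with detection p-values from 0.397 to 0.778. A probe without detection does not show that the transcript was missing, since no probe of Snap25, Nefl or Gad2, genes that cortical cultures transcribe strongly, was detected on any array either. Whether the annotation pairs those probes with the right genes was not resolved, and the gene of every probe here rests on that annotation. Of all 6 Sin3A-binding members of the family, 3 were tested and all 3 were lower. Of the 6 that recruit acetyltransferases, 4 were tested, 2 were higher and 2 did not pass, each gene read by its brightest detected probe. Over all genes read that way, 14% were called lower and 15.4% higher. Members were chosen with these results known, and the Klf13 and Klf6 calls were each lost in several alternatives, so the counts are a description.

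Among the members known to recruit acetyltransferases, Klf7, an activator of neuronal differentiation and axon growth in mouse, was read by 3 probes. Probe ILMN_1251426 read 4190.6, 4679.6 and 3753.9 in controls and 7735.3, 9349 and 6881.9 after knockdown. The lowest knockdown array lay above the highest control array, and replicate 3 was lowest in both groups. The mean normalised log2 level was 11.98 ± 0.095 in controls and 12.99 ± 0.15 after knockdown (SD, n = 3), a difference of 1.02 (SE 0.11, limma adjusted p = 0.00149). The difference was 0.97, 1.08 and 1.01 in the 3 preparations. Probe ILMN_2433213 read 3987.6, 4463 and 3157 in controls and 7377, 7653.9 and 5258.7 after knockdown. It rose by 0.90 (SE 0.13, limma adjusted p = 0.0042). Probe ILMN_1241890, designed against a cDNA clone rather than a RefSeq transcript, read 2775.4, 2790.3 and 2109.6 in controls and 4912, 5206.5 and 3408.1 after knockdown. It rose by 0.89 (SE 0.13, limma adjusted p = 0.00479). All 3 probes separated the groups, and their differences ran from 0.89 to 1.02.

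Klf6, an activator induced by injury and known to promote neurite growth, was read by 2 probes with like differences and unlike spread. The brighter probe, ILMN_2731949, read 3944.7, 4486.3 and 2939.4 in controls and 5392.2, 5820.9 and 4032.1 after knockdown. On the deposited scale the groups overlapped, because knockdown replicate 3 lay below control replicate 2. After normalisation they did not, at 11.80 ± 0.23 and 12.31 ± 0.16 (SD, n = 3), and the differences were 0.53, 0.42 and 0.58 in the 3 preparations. The difference of 0.51 (SE 0.15, limma adjusted p = 0.0422) is a 1.42-fold rise. The call was lost with median scaling (0.36, adjusted p = 0.272) and with no filter on dim probes (adjusted p = 0.087). It was also lost on leaving out control replicate 1 (0.52, adjusted p = 0.103), control replicate 3 (0.39, adjusted p = 0.0946), knockdown replicate 1 (0.49, adjusted p = 0.107) or knockdown replicate 2 (0.45, adjusted p = 0.12). With preparation as a replicate block the difference had a limma adjusted p of 0.0183. The dimmer probe, ILMN_1232041, read 326.4, 461 and 245.4 in controls and 435.7, 504.6 and 426.7 after knockdown. Control replicate 2 lay among the knockdown arrays, and the difference of 0.55 (SE 0.25, limma adjusted p = 0.147) missed the threshold. Without control replicate 2 it was 0.82 with an adjusted p of 0.0241, and without control replicate 3 it was 0.30 with an adjusted p of 0.313. Of 16 alternatives, 1 passed.

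Klf5, a factor of proliferating epithelia and smooth muscle, was bright and did not pass. Probe ILMN_1253387 read 2304.3, 2301.5 and 2882.5 in controls and 2415, 2310.2 and 2344.3 after knockdown. Control replicate 3 was the highest array and the other 5 lay close together. The difference was -0.017, with a 95% confidence interval from -0.39 to 0.36 and a limma adjusted p of 0.95, so a change within that interval was not resolved. The other Klf5 probe, ILMN_2433293, was detected on no array and read from 73 to 85.6.

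Klf2, a factor of endothelial and T cell quiescence, was dim but detected on all 6 arrays. Its probe read 152.2, 170.6 and 167.5 in controls and 206.3, 181.7 and 169.2 after knockdown. The normalised difference was 0.73, 0.11 and -0.18 in the 3 preparations, with no shared direction. The mean difference of 0.22 (SE 0.17, limma adjusted p = 0.374) missed the threshold, and its 95% confidence interval ran from -0.18 to 0.62. It was 0.073 without knockdown replicate 1, 0.11 without control replicate 1 and 0.35 without knockdown replicate 3, and passed in none of these fits.

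Klf4, a reprogramming factor that restrains axon growth, was read by 3 probes, of which 2 were detected on no array. Probe ILMN_2999439 was detected on 1 knockdown array and on 0 control arrays, and read 123.1, 102.7 and 92.7 in controls and 124.7, 166 and 119 after knockdown. Probe ILMN_1241903 read 79.9, 89 and 79.5 in controls and 123.1, 102.5 and 109.4 after knockdown, and ILMN_1221264 read 71.4, 64.2 and 75.8 against 85.1, 89.6 and 89.3. The knockdown arrays were above the control arrays on the latter 2 probes, at intensities not above background. No difference is given for Klf4, since both groups were at or near background.

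**Figure D2:**
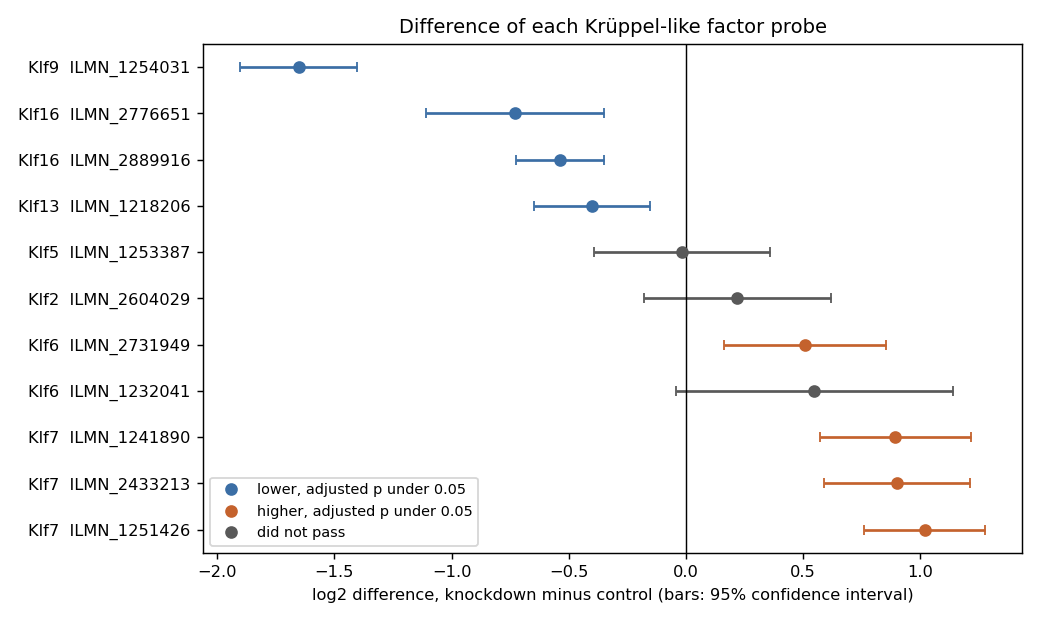
Log2 difference, knockdown minus control, of the 11 tested Krüppel-like factor probes, with 95% confidence intervals as bars and colours for the call. Klf9 lies lowest at -1.65 and the 3 Klf7 probes highest, at 0.89 to 1.02.

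Klf3, which represses through CtBP, was read by a single probe designed against a cDNA clone. It was detected on no array, with intensities from 84 to 110.2. No difference is given for it.

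**Figure D3:**
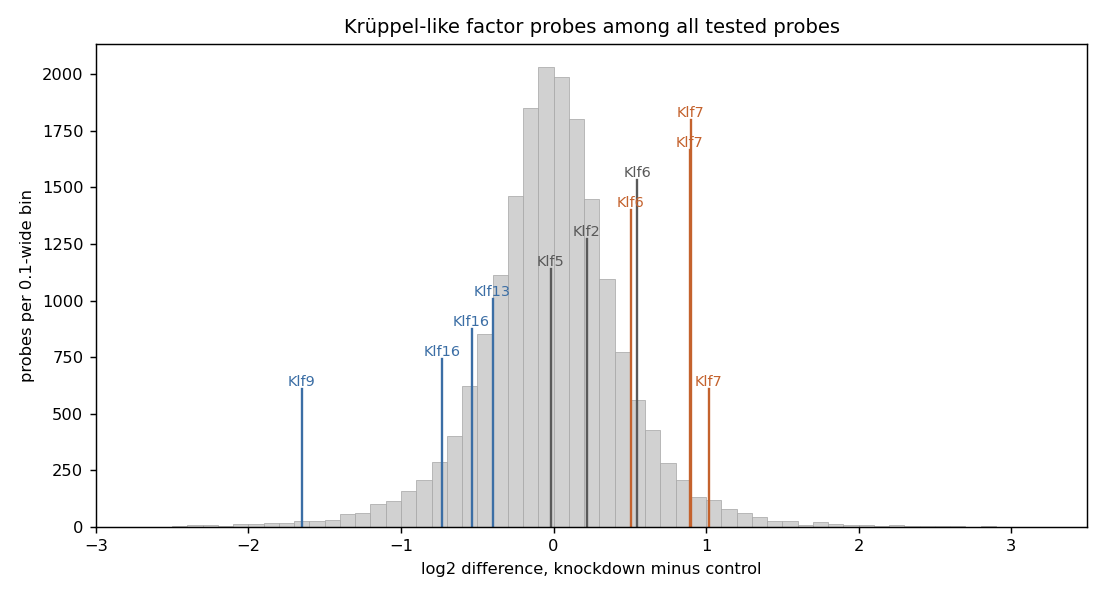
Histogram of the log2 difference, knockdown minus control, of all 18627 tested probes in bins of 0.1, with vertical lines at the 11 member probes (line height has no meaning). Klf9 at -1.65 lies in the lower tail, with 94 probes as low or lower, while Klf5 at -0.017 and Klf2 at 0.22 lie near the centre.

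The other 7 Klf genes of the family were represented by 13 probes, of which 1 was tested. That probe was for Klf15, a glucocorticoid-induced member, and it differed by -0.49 (SE 0.24, limma adjusted p = 0.182) with differences of -0.29, 0.062 and -1.25 in the 3 preparations. The Klf15 probe was near background, detected on 3 control arrays and 2 knockdown arrays, so the size of its difference is uncertain. Of 15 probes for 8 of the 9 Sp genes, the family that shares the same type of zinc fingers, 3 were tested and 0 passed. Sp4, a neuronal Sp factor, differed by -0.10 (SE 0.080, limma adjusted p = 0.386). Sp8, a factor of interneuron development, differed by -0.35 (SE 0.26, adjusted p = 0.366) and Sp6 by 0.34 (SE 0.40, adjusted p = 0.561). The Sp6 probe was near background, detected on 1 control array and 2 knockdown arrays. At an unadjusted p under 0.05, limma called 0 of these 4 Klf15 and Sp probes.

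The spread within groups followed the replicate number for several members. The deviation from the group mean of replicate 3 was -0.15 in controls and -0.095 after knockdown for Klf9, -0.13 and -0.093 for Klf13, and -0.24 and -0.17 for the brighter Klf6 probe. For Klf7 it was -0.16 and -0.24 on probe ILMN_1241890 and -0.17 and -0.195 on ILMN_2433213. On the brightest Klf7 probe, ILMN_1251426, it was -0.047 and -0.057, and replicate 1 was lower still, at -0.063 and -0.11. Klf16 had 0 and -0.004 on its brighter probe and -0.071 and -0.094 on the dimmer. Klf5 went the other way, at 0.33 and 0.13, while Klf2 had 0.14 and -0.26. Replicate 3 also had the lowest mean intensity over all probes in both groups, 708.9 in controls and 669 after knockdown, beside 750 to 788 on the other 4 arrays. The part of this in the members' spread after normalisation was not tested.

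Promoter sequences, from 250 bases before to 50 bases after the annotated start, were held for 7 of the 10 genes (RefSeq, GRCm38.p6). None was held for Klf5, Klf10 or Klf16, and Klf16 is among the members that fell. The sequences of Klf9 and Klf13, which fell, and of Klf7 and Klf6, which rose, are printed 5′ to 3′ on the gene's strand. Capitals mark the family's own binding letters, CACCC and the GC box GGGCGG, on either strand (GGGTG and CCGCCC are their complements).
Klf9 (chr19:23140976-23141275, plus strand): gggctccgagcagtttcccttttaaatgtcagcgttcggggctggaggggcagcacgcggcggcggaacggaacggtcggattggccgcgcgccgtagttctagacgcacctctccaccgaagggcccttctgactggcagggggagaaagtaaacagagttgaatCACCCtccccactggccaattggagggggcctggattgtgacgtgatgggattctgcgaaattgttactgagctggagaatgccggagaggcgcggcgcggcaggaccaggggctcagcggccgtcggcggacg
Klf13 (chr7:63938866-63939165, minus strand): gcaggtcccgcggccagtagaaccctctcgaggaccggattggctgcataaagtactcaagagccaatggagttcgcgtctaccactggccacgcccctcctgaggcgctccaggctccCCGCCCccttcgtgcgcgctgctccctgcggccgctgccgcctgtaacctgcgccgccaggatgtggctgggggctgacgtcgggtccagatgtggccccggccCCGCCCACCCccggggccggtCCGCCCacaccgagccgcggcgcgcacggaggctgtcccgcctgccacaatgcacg
Klf7 (chr1:64121340-64121639, minus strand): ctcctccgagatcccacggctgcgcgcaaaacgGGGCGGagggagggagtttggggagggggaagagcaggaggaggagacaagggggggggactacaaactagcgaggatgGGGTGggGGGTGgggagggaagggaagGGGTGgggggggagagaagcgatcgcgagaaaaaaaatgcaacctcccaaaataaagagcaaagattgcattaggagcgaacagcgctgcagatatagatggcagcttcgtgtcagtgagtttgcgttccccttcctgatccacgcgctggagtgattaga
Klf6 (chr13:5861239-5861538, plus strand): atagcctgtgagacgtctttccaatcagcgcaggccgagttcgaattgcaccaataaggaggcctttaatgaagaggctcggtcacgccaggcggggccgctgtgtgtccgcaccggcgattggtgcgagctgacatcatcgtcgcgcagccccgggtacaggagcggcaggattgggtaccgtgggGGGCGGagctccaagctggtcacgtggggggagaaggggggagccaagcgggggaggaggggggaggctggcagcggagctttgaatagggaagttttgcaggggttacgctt

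The Klf9 window holds 1 CACCC and 0 GC boxes, the Klf13 window 1 and 3, where a GC box overlaps the CACCC, the Klf7 window 3 and 1, and the Klf6 window 0 and 1. Over the 7 windows held, 5 have CACCC and 6 a GC box, beside 57.5% and 35.7% of all 32851 promoter windows of the same length. The letters CCAAT occur 3 times in the Klf9 window, 2 times in Klf13, 4 times in Klf6 and 0 times in Klf7, and in 37.4% of all windows at least once. An E-box, CACGTG, lies in the Klf6 and Klf4 windows and in 7.15% of all windows. The letters TGACGTCA (the cyclic AMP response element, in 1.79% of all windows), TGACTCA (AP-1, in 5.2%) and TATAAA (in 13.6%) and the CArG box (in 1.63%) were searched on both strands and have no match in the 7 windows. A MEF2 element, by its name, lies in the Klf2 window from base -118 to -109, and in 3.19% of all windows. The windows of these 4 genes hold 16 to 32 CG dinucleotides, with a median of 7 over all promoter windows. A match is a description of the letters and not evidence of binding.

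**Figure D4:**
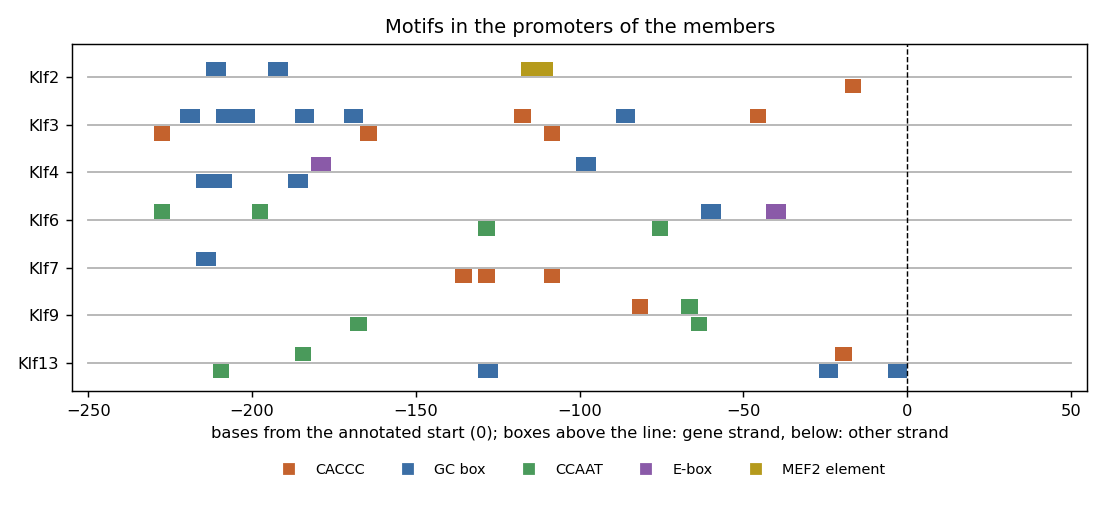
Positions of the CACCC, GC box, CCAAT, E-box and MEF2 letters in the promoter windows of the 7 members with a sequence, in bases from the annotated start. The Klf7 window has 3 CACCC matches between -138 and -107, and the Klf9 window has 1, at -84 to -80.

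No tested gene for a cofactor of KLF proteins passed on its brightest probe. Of 13 listed genes, 8 were tested and 0 passed by their brightest probe, at the adjusted threshold or at an unadjusted limma p under 0.05. Sin3a, the corepressor of the members that fell, differed by -0.15 (SE 0.093, adjusted p = 0.266). Ctbp2 differed by 0.28 (SE 0.19, adjusted p = 0.312) on its brightest probe, while its other probe rose by 0.70 (SE 0.17, limma adjusted p = 0.0224). The median over the 8 genes was 0.041, beside 0.0058 over all 11280 genes read by their brightest probe, of which 29.4% were called.

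Of 19 listed regulators known to act on KLF genes, 13 were tested, 2 rose, 2 fell and 9 did not pass, with a median of -0.061. These 4 calls of 13 are near the 29.4% of all genes called. Mapk7, which encodes ERK5, the kinase upstream of Klf2 and Klf4, rose by 0.67 (SE 0.20, limma adjusted p = 0.0497). Its probe was near background, detected on 2 control arrays and 3 knockdown arrays, so the size of that rise is uncertain. Tgfbr1, a receptor gene of transforming growth factor beta, rose by 1.07 (SE 0.26, adjusted p = 0.025). Smad3, a transducer of that receptor, fell by 1.27 (SE 0.10, adjusted p = 0.000705), and its other probe fell by 0.65. Srf, the gene of serum response factor, fell by 0.45 (SE 0.082, adjusted p = 0.0094).

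Genes reported elsewhere as direct KLF targets were listed from other tissues. Of 23, 14 were tested, 4 rose, 2 fell and 8 did not pass, with a median of 0.17. Tgfbr1, already named among the regulators, is one that rose. Over all genes read by their brightest probe, 29.4% were called, 15.4% higher and 14% lower, which stands beside the lists that follow as well. Lgals3, a galectin gene reported as repressed by Klf3 in mouse, was called higher (limma adjusted p = 0.00372) and was detected on 1 control array and all 3 knockdown arrays, so that no size is given. Cdkn1a, a cell cycle inhibitor gene that Klf4 and Klf6 are known to activate, rose by 0.79 (SE 0.14, adjusted p = 0.00797), and by 0.89 on each of its other 2 probes. Per1, a clock gene, fell by 0.67 (SE 0.092, adjusted p = 0.00341) and by 0.77 on its other probe. Among 9 genes induced by glucocorticoids, as Klf9 is, 1 rose, 3 fell and 5 did not pass, with a median of -0.20. The gene that rose is Cdkn1a, so Cdkn1a and Per1 are counted on both lists. Besides Per1, Tsc22d3 (the glucocorticoid-induced leucine zipper gene) fell by 0.50 (SE 0.12, limma adjusted p = 0.0248) and Nfkbia, an inhibitor of NF-kappaB, by 0.35 (SE 0.089, adjusted p = 0.0282). The other Nfkbia probe differed by 0.16 (adjusted p = 0.675). Klf2, Klf4, Klf6 and Klf10 are often counted among activity-induced genes. Of 17 tested genes on a list of such genes without KLFs, 11 fell, 2 rose and 4 did not pass, with a median of -1.49. The lowest differences were -2.39 for Arc, -2.30 for Egr4, -2.09 for Npas4 and -2.06 for Fos (limma adjusted p of 0.000407, 0.00142, 0.00237 and 0.00266). Npas4 was detected on 2 knockdown arrays, near background, so the size of its fall is uncertain. Jun rose by 1.40 and Fosl2 by 0.64 (adjusted p of 0.00141 and 0.0137).

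By likeness over the 6 arrays, among 10174 named genes outside the family, the genes closest to Klf9 were Cracdl, Actn1 and Phtf2, with Pearson r of at least 0.999. Those closest to Klf7 probe ILMN_1251426 were Gng10, Mast4 and Leprot, with Pearson r of 0.9989, 0.99844 and 0.99762. In all, 99 genes had r above 0.99 with Klf9 and 50 with Klf7. These values describe 6 arrays in 2 groups, so a gene with a steady difference between the groups comes out alike.

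Marker lists of the cell types a cortical culture can hold were read beside the members. Over all genes, 29.4% were called, 15.4% higher and 14% lower. Of 9 astrocyte markers 8 were tested and 4 fell, with a summed normalised intensity of 24589 to 33709 in controls and 18411 to 23037 after knockdown. Of 9 inhibitory neuron markers 8 were tested and 6 fell, with sums of 49690 to 55157 and 26330 to 32562. Neuron markers were bright, 7 of 9 being tested, with sums of 100100 to 101530 in controls and 82197 to 87577 after knockdown, where 3 fell and 1 rose. Endothelial and microglial cells are known for high Klf2 and Klf4. Of 9 endothelial markers 5 were detected on no array and 0 passed, with sums of 115 to 144 and 72 to 123 over the 2 tested genes. Of 10 microglial markers 7 were detected on no array, and the 1 tested, Aif1, differed by 0.43 (limma adjusted p = 0.0853), with levels of 45 to 69 and 73 to 81. Of 9 oligodendrocyte markers 3 were tested and 0 passed, with sums of 8196 to 11061 and 4749 to 7648. Of 8 mural cell and fibroblast markers 4 were tested and 0 passed, with sums of 1870 to 3350 and 2281 to 3288. Of 7 progenitor markers 4 were tested and 1, Hes5, fell by 1.08, with sums of 663 to 942 and 659 to 926. In these bulk cultures fewer cells of a type and less RNA per cell cannot be told apart, and the part of cell makeup in the differences of Klf9 and the other members was not tested.

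**Figure D5:**
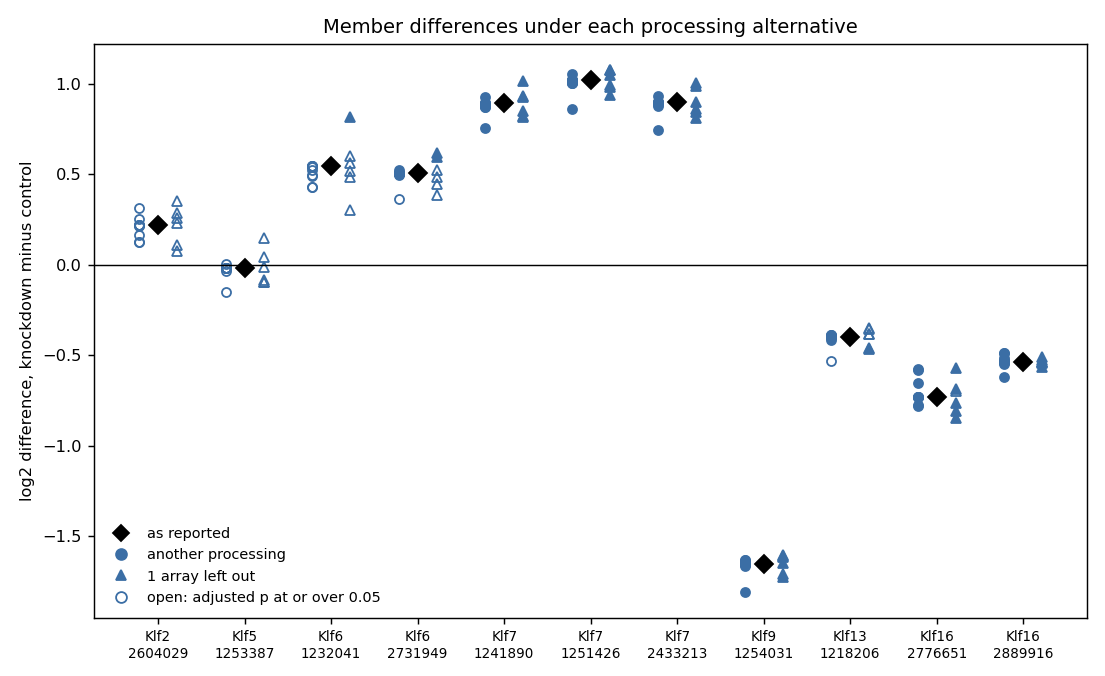
Log2 difference, knockdown minus control, of each tested member probe as reported (diamond), under other processing (circles) and with 1 array left out (triangles), with open symbols where the adjusted p was 0.05 or more. Klf9 and all Klf7 probes stayed past the threshold under each alternative shown, while the brighter Klf6 probe and Klf13 were past it in 11 of 17.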

How the data were processed

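Per the labels' protocols, 500 ng of total RNA per sample was turned into biotin-labelled cRNA for hybridisation to an Illumina mouse bead array. In the deposited table each probe has an intensity for each of the 6 arrays, not normalised between arrays. The detection p-value in the column beside it is named as such per the file headers. The lowest intensity was 47.8, so the values were taken as not background-subtracted. Scanner software is not given in the sources used here. A deposited matrix of processed intensity values matched quantile-normalised intensities to within 0.00462 (log2) and was used as an alternative.

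Background was corrected with normexp from the detection p-values (limma 3.58.1, offset 16, R 4.3.3), followed by quantile normalisation and log2. Probes with detection p under 0.05 on at least 3 of 6 arrays were fitted with lmFit and eBayes, adjusted over all 18627. The model held the group alone, so SEs and p-values are unpaired except where the replicate block is named. Gene names came from the platform annotation, and 937 probes were updated through RefSeq (GRCm38.p6, names alone). Genes of the lists are read by their brightest detected probe. Named genes are all member probes, tested Klf and Sp probes, and of each list the called genes that differed most (at most 4), or, where none was called, the 2 of lowest p. For the marker lists, counts and summed levels are given.

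Members, lists, tests and alternatives were chosen with earlier results of these data known. Deviations from the group mean were correlated between arrays that share a number (r of 0.149, 0.253 and 0.25 across genes). Between different numbers r ran from -0.21 to 0.0034. The 3 deviations of a group cancel out by construction, which ties these r values together, so they do not settle which arrays share a preparation. Whether the preparations came from separate animals is not stated, and 3 arrays per group limit the precision. The fit was also run on simulated data with independent noise on each array. That setting leaves out any shared preparation effect, and its outcome is not given here. The alternatives were other background, scaling and filter settings, preparation as a block, array weights, 1 probe per gene and each array left out.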

Additional observations from a re-analysis of the deposited data

How the results depend on the processing

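Across 17 alternatives, the probes of Klf9 and Klf7 and Klf16 probe ILMN_2889916 kept their direction and their side of the threshold wherever they were fitted. Klf9 ran from -1.81 to -1.61 and its highest adjusted p was 0.00423. The calls of Klf6, Klf13 and Klf16 that were lost are given beside their results. With no filter on dim probes the Klf6 and Klf13 differences stayed at 0.51 and -0.40, and the adjustment ran over 45281 probes. The cause of the other losses was not tested. Klf5, which did not pass, turned to 0.0054 with array weights and ran from -0.0982 to 0.15 with 1 array left out (0.15 without control replicate 3, 0.045 without knockdown replicate 2). The replicate block changed no member's call. With median scaling 1295 probes were higher and 2022 lower (39% of calls higher, against 50.5%), where 2581 and 2526 were called as reported. Leaving out 1 array gave 1554 to 2214 higher and 1449 to 2137 lower, with losses over 1.5 times without control replicate 1 (1554 and 1449), control replicate 2 (1666 lower) and knockdown replicate 2 (1678 higher). With the replicate block 4 member probes were higher and 4 lower, and over all probes 2567 were higher and 2598 lower. With 1 probe per gene, 2 member genes were higher, since 3 of the 4 called probes are for Klf7. Dim probes limit what can be said of Klf2, Klf3, Klf4 and Klf10.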
